A study of Mus musculus with 16 samples.

Results

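The genes of fatty acid oxidation were followed in primary mouse hepatocytes treated with SQ1 or pravastatin. They were taken as a set list of 38 genes, out of 20655 genes that the array names through RefSeq accessions. Of these, 17 encode mitochondrial proteins (the carnitine shuttle, the beta-oxidation enzymes and the electron transfer flavoproteins) and 14 peroxisomal proteins. A further 3 (Crat, Eci2 and Amacr) work in both organelles, and 4 are long-chain acyl-CoA synthetases, which activate fatty acids at several membranes. All 38 had a probe bright enough to be tested, so that the counts below are over the whole list. The dimmest was Abcd2, well above background in 9 of 16 control channels, in 5 of 8 with SQ1 and in 1 of 8 with pravastatin. The other 37 were well above background in every channel.

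The hepatocytes came from male C57Bl/J mice whose age is not given in the sources used here. They were kept in Williams Medium E, and 48 h after plating received 100 µM SQ1, 30 µM pravastatin or no drug for 48 h. Each of 16 arrays carried treated RNA in 1 dye and untreated control RNA in the other, 8 arrays for each drug, and the dyes were swapped on replicates 5 to 8. SQ1 is taken to be squalestatin 1, an inhibitor of squalene synthase, and pravastatin inhibits HMG-CoA reductase, the rate-limiting enzyme of the same pathway. The doses differ as labelled, and squalestatins usually act far below the labelled dose, so that its unit is uncertain. The series calls the 8 cultures of a kind biological replicates, and no animal is tied to an array. The deposited files give the same control numbers to same-numbered arrays of the 2 drugs, so that the comparisons may share control RNA.

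Fatty acids are activated to acyl-CoA, and long chains enter mitochondria as carnitine esters, which Cpt1a forms, Slc25a20 carries across the inner membrane and Cpt2 turns back into acyl-CoA. Each turn of beta-oxidation then runs through a dehydrogenase, a hydratase, a second dehydrogenase and a thiolase, and the electron transfer flavoproteins pass electrons to the respiratory chain. Peroxisomes shorten very long and branched chains with their own enzymes, which begin with an oxidase that makes hydrogen peroxide, and they also shorten the side chain of bile acid precursors. In liver, many of these genes are targets of the nuclear receptor PPARalpha, which binds a direct repeat of hexamers spaced by a single base (DR1).

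Promoters are shown for a few of the genes, of which Acox2 and Etfdh carry a motif match. RefSeq windows were matched for 32 of the 38 genes (GRCm38.p6). The window used was the 250 bases before the start site, read along the gene, without the transcribed part. Hadha and Hadhb, which encode the alpha and beta subunits of the mitochondrial trifunctional protein, start from opposite strands of the same stretch, so that their windows share 228 bases (capitals). The stretch between their starts, chr5:30154981-30155252, is given on the plus strand. Ehhadh, which had the largest rise with SQ1, lies at chr16:21787835-21788084 on the minus strand and held none of the motifs searched, so that it has no capitals. For Acox2 (chr14:8259020-8259269, minus strand) the capitals mark a DR1 match, and for Etfdh (chr3:79628768-79629017, minus strand) an NRF1 match. The window of another Acox2 start site (chr14:8258840-8259089), not shown, holds the same DR1 match.
Hadha and Hadhb: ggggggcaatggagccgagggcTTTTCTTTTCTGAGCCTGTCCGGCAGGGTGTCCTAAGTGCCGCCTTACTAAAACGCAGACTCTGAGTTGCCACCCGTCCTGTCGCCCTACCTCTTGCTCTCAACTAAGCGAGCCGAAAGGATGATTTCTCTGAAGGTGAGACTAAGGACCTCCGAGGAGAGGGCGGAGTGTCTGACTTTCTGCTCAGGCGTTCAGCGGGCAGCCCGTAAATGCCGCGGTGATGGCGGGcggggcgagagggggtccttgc
Ehhadh: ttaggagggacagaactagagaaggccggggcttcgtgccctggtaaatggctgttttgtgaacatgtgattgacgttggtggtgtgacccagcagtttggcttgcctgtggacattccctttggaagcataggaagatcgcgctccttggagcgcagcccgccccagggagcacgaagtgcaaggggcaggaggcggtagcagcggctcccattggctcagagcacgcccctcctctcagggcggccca
Acox2: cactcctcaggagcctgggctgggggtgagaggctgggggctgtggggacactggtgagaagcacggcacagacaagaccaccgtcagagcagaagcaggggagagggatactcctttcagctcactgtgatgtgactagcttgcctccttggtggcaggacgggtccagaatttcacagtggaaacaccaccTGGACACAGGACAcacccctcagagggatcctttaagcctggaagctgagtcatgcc
Etfdh: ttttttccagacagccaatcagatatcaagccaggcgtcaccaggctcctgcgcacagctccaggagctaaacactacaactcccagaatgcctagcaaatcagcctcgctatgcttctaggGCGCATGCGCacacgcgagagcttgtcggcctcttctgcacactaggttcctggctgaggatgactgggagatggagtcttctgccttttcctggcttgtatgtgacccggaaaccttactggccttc

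The motifs were searched on both strands. DR1, written as the hexamers NGGNCA and AGGNCA with any base between them, was found in the window of 1 of the 32 genes (Acox2) and of 0.81% of all 27025 genes with a window. The element of the oestrogen-related receptors, written TNAAGGTCA, was in 0 of the 32 and in 1.3% of all. The NRF1 element, written as GCGC and TGCGC with any base between them, was in 3 (Abcd3, Etfb and Etfdh) and in 4.23% of all. These matches describe letters in a short window and say nothing of binding elsewhere.

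Of the markers of hepatocytes on the array, 17 of 17 were well above background in all control channels, as the label asks. So were 11 of 11 markers of Kupffer cells and leukocytes, 10 of 10 of stellate cells, 10 of 10 of endothelium and 5 of 8 of cholangiocytes. Fewer cells of a type and less RNA per cell cannot be told apart in such RNA. Between 59% and 69.7% of probes were well above background in the treated channels. The arrays lay on 4 slides, with replicates 1, 2, 5 and 6 of SQ1 on slide 1, its replicates 3, 4, 7 and 8 on slide 2, and the same numbers of pravastatin on slides 3 and 4. SQ1 replicate 1 correlated least with the other arrays of its drug (mean correlation 0.453), and pravastatin replicate 4 least with those of pravastatin (0.843).

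**Figure D1:**
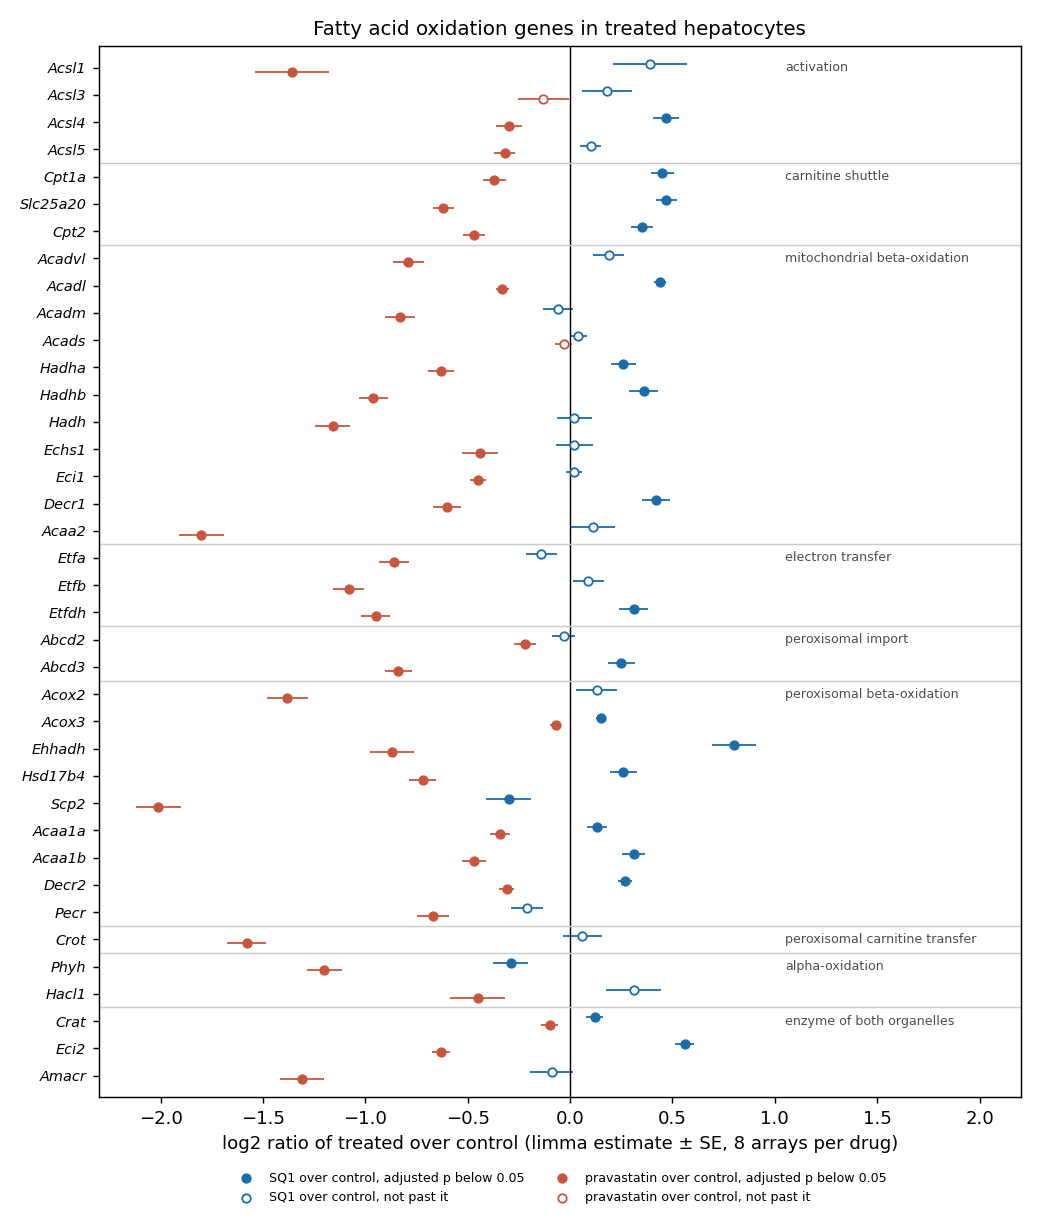
Log2 ratio of treated over control for the 38 genes, ordered by role, as the limma estimate with its standard error (8 arrays per drug). Filled points passed an adjusted p of 0.05, and all but Acads and Acsl3 were called lower with pravastatin.

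SQ1 raised 18 of the 38 genes and lowered 2, while 18 did not pass the threshold. The risers took in the whole carnitine shuttle, 6 of 9 peroxisomal beta-oxidation genes and 4 of 11 mitochondrial ones. Among all 15088 genes tested, 15.7% were higher and 16.5% lower with SQ1 (limma, Benjamini-Hochberg adjusted p of 0.05). The median log2 ratio of the 38 genes was 0.16, against 0 over all genes, and it lay between -0.07 and 0.45 on single arrays. The rises ran from 1.09-fold for Crat to 1.74-fold for Ehhadh. By compartment, 8 of 17 mitochondrial genes rose and 0 fell (0 also at an unadjusted p of 0.05), with a median of 0.19. On slide 1 alone, the mitochondrial genes Etfa (-0.32, adjusted p = 0.000253), Acadm (-0.19, adjusted p = 0.0164) and Echs1 (-0.17, adjusted p = 0.0262) were called lower. Of 14 peroxisomal genes, 7 rose and 2 fell, with a median of 0.14. With scan day as a random block the count of risers was 10, because 9 calls, 8 of them rises, were lost. All SQ1 arrays share a scan day, and only the pravastatin arrays lay on both days. Here and below, this setting therefore cannot show whether SQ1 calls depend on scan day.

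Ehhadh, the peroxisomal bifunctional enzyme that hydrates and dehydrogenates the chain, had log2 ratios of 0.35 at the lowest, 0.67 at the median and 1.29 at the highest over the 8 SQ1 arrays. All 8 lay above 0 and above all 8 pravastatin arrays. It rose 1.74-fold (log2 0.80 ± 0.11 SE, adjusted p = 3.58e-05). Eci2, an enoyl-CoA isomerase found in mitochondria and peroxisomes, ranged from 0.36 over a median of 0.61 to 0.65. Again no array was at or below 0, and the fit gave a 1.47-fold rise (0.56 ± 0.05, adjusted p = 2.35e-07).

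The carnitine shuttle rose as a whole, 3 of 3 genes. Slc25a20, the carnitine and acylcarnitine translocase, had ratios from 0.19 to 0.60 with a median of 0.51. Its 8 arrays lay on 1 side of 0, and the estimate was 0.47 ± 0.05 (1.38-fold, adjusted p = 4.78e-06). Cpt1a, which sets the pace of entry into liver mitochondria, ranged from 0.29 to 0.62 with a median of 0.44. This too was above 0 on 8 of 8 arrays, at 0.45 ± 0.06 (adjusted p = 1.78e-05). Cpt2 ranged from 0.12 to 0.63 with a median of 0.33. It rose by 0.35 ± 0.05 (adjusted p = 0.000144), the lowest estimate of the shuttle.

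Of the 11 beta-oxidation genes of the mitochondrial matrix, Acadl, Decr1, Hadha and Hadhb rose and the others did not pass. Acadl, the long-chain acyl-CoA dehydrogenase, had ratios of 0.36 to 0.53 with a median of 0.44, the narrowest spread of the named genes (SD 0.0558). It rose by 0.44 ± 0.03 (adjusted p = 2.34e-08). Decr1, which reduces dienoyl-CoA from unsaturated chains, rose by 0.42 ± 0.07 (adjusted p = 0.000211). Hadha and Hadhb, whose shared promoter stretch is shown above, rose by 0.26 ± 0.06 and 0.36 ± 0.07 (adjusted p = 0.00394 and 0.00089), and scan day as a random block ended both (adjusted p = 0.219 and 0.0934). Etfdh, the ubiquinone oxidoreductase that takes electrons from the flavoproteins, rose by 0.31 ± 0.07 (adjusted p = 0.00392). That rise did not pass within slide 1 (adjusted p = 0.0504) or under a random scan day block (adjusted p = 0.213). Its partners Etfa and Etfb, at -0.14 ± 0.07 and 0.09 ± 0.08, did not pass. Etfa was called lower within slide 1 (-0.32, adjusted p = 0.000253) and with slide terms (adjusted p = 0.00691). Etfb was called higher within slide 2 (0.248, adjusted p = 0.0013) and with slide terms (adjusted p = 0.0478).

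Acadm, the medium-chain dehydrogenase, had SQ1 ratios of -0.37 at the lowest, 0.00 at the median and 0.12 at the highest. They lay on both sides of 0, and the estimate of -0.06 ± 0.07 did not pass (adjusted p = 0.57). Acads (short-chain dehydrogenase, 0.04), Hadh (0.02), Echs1 (0.02), Eci1 (0.02) and Acaa2 (the matrix thiolase, 0.11) did not pass either. Acaa2 was called higher within slide 2 (0.36, adjusted p = 0.00199) but did not pass within slide 1 (-0.15, adjusted p = 0.128). Acadvl, for very long chains, was at 0.19 ± 0.08 (adjusted p = 0.0648). It passed with replicate number as a block (adjusted p = 0.037), without SQ1 replicate 1 (adjusted p = 0.0156) and without pravastatin replicate 4 (adjusted p = 0.0458). The Agilent ratio (adjusted p = 0.0445), the deposited series table (0.0446), weighted arrays (0.0142) and slide terms (0.000695) also gave a call. Within slide 2 it passed (0.376, adjusted p = 0.000104), and within slide 1 it did not (0.01, adjusted p = 0.934).

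Among peroxisomal genes, Abcd3, the main acyl-CoA transporter of the liver peroxisome, had ratios of -0.06 to 0.47 with a median of 0.31. Replicate 1 was the array below 0. The rise of 0.25 ± 0.07 (adjusted p = 0.00783) did not pass within slide 1 (0.13, adjusted p = 0.0963) or under a random scan day block (adjusted p = 0.302). The thiolase genes Acaa1b and Acaa1a, close paralogs whose probes may share signal, rose by 0.31 ± 0.06 (adjusted p = 0.000758) and 0.13 ± 0.05 (adjusted p = 0.048). The call of Acaa1a was lost with slide as a random block (adjusted p = 0.137), and without any of SQ1 replicates 3, 4, 6, 7 and 8 or pravastatin replicates 2, 3, 5, 6, 7 and 8 (adjusted p between 0.0525 and 0.147). Decr2, the peroxisomal dienoyl-CoA reductase, rose by 0.27 ± 0.04, Hsd17b4, the bifunctional enzyme for branched chains, by 0.26 ± 0.06, and the branched-chain oxidase Acox3 by 0.15 ± 0.02. Scan day as a random block removed the calls of Acaa1b (adjusted p = 0.0781) and Hsd17b4 (adjusted p = 0.293). Crat, which moves acetyl groups between CoA and carnitine in both organelles, rose by 0.12 ± 0.04 (adjusted p = 0.0334), a call lost with slide as a random block (adjusted p = 0.152), within slide 1 (adjusted p = 0.278) and without any of SQ1 replicates 3, 4, 6 and 7 (adjusted p between 0.0587 and 0.11).

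The 2 genes that fell with SQ1 were Phyh and Scp2. Phyh, the first enzyme of alpha-oxidation of phytanic acid, fell by 0.29 ± 0.09 (adjusted p = 0.0167), and Scp2, whose longer product is a thiolase for branched chains, by 0.30 ± 0.11 (adjusted p = 0.0482). Neither call held with median centring (-0.153 for each, adjusted p = 0.462 and 0.519) or within slide 2 (-0.085 and -0.0459, adjusted p = 0.164 and 0.702). Leaving out SQ1 replicate 1 or SQ1 replicate 5 also ended both calls, with Phyh at adjusted p = 0.0524 and 0.0509 and Scp2 at 0.138 and 0.136. The call of Scp2 was also lost without any of SQ1 replicates 2, 3 and 6 or pravastatin replicates 1, 2, 3 and 6 (adjusted p between 0.0511 and 0.118). Pecr, an enoyl-CoA reductase, was at -0.21 ± 0.08 (adjusted p = 0.0537). It passed with replicate number as a block (adjusted p = 0.0291), and without any of SQ1 replicates 4, 7 and 8 or pravastatin replicates 4 and 5 (adjusted p between 0.0317 and 0.0492). Weighted arrays (adjusted p = 0.0287) and slide terms (adjusted p = 0.00222) also gave a call. Pecr passed within slide 1 (-0.383, adjusted p = 0.000354) but not within slide 2 (-0.03, adjusted p = 0.784). Hacl1, the lyase of alpha-oxidation, was at 0.31 ± 0.13 and did not pass (adjusted p = 0.0941). It passed without SQ1 replicate 1 (adjusted p = 0.0415) or pravastatin replicate 4 (adjusted p = 0.0483), with weighted arrays (adjusted p = 0.0322) and with slide terms (adjusted p = 0.0068). Hacl1 also passed within slide 2 (0.552, adjusted p = 0.00234), but not within slide 1 (0.06, adjusted p = 0.742).

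Of the acyl-CoA synthetases, Acsl4, which prefers arachidonic acid, ranged from 0.16 to 0.72 with a median of 0.40. Every array lay above 0, and it rose by 0.47 ± 0.06 (adjusted p = 3.55e-05). Acsl1, the main synthetase of the hepatocyte, ranged from -0.34 to 1.02 with a median of 0.34. This was the widest spread of the SQ1 arrays (SD 0.501), with both negative arrays on slide 1, and 0.39 ± 0.18 did not pass (adjusted p = 0.112). It passed within slide 2 (0.796, adjusted p = 0.000253) but not within slide 1 (-0.01, adjusted p = 0.946). It also passed with slide terms (adjusted p = 0.00203), with weighted arrays (adjusted p = 0.0438) and as the mean over its probes (0.457, adjusted p = 0.0249). Acsl3 (0.18 ± 0.12) and Acsl5 (0.10 ± 0.05) did not pass. Within slide 2 Acsl3 passed (0.382, adjusted p = 0.0139), and within slide 1 it did not (-0.02, adjusted p = 0.925).

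Pravastatin lowered 36 of the 38 genes and raised 0, also at an unadjusted p of 0.05 and under every alternative run. Of the mitochondrial genes 16 of 17 fell and of the peroxisomal genes 14 of 14, with medians of -0.63 and -0.69. The 14 include Abcd2 (-0.22 ± 0.06, adjusted p = 0.00223), which was well above background on 1 of 8 pravastatin arrays. Its fall did not pass within slide 4 (-0.0825, adjusted p = 0.252). Among all genes tested, 35.7% were lower and 30.8% higher with pravastatin. The median of the 38 genes was -0.63, against -0.01 over all genes, and lay between -0.96 and -0.36 on single arrays. Acads (-0.03 ± 0.04, adjusted p = 0.556) and Acsl3 (-0.13 ± 0.12, adjusted p = 0.383) did not pass, though Acsl3 did without pravastatin replicate 4 (-0.253, adjusted p = 0.0402). Acsl3 was called lower within slide 3 (-0.47, adjusted p = 0.000899) and was at 0.22 within slide 4 (adjusted p = 0.0811). These slides differed for it (adjusted p = 0.00388). With median centring 27 of the 38 were lower, and the calls of Acsl4, Acsl5, Cpt1a, Acadl, Echs1, Acaa1a, Decr2, Hacl1 and Acox3 were lost.

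**Figure D2:**
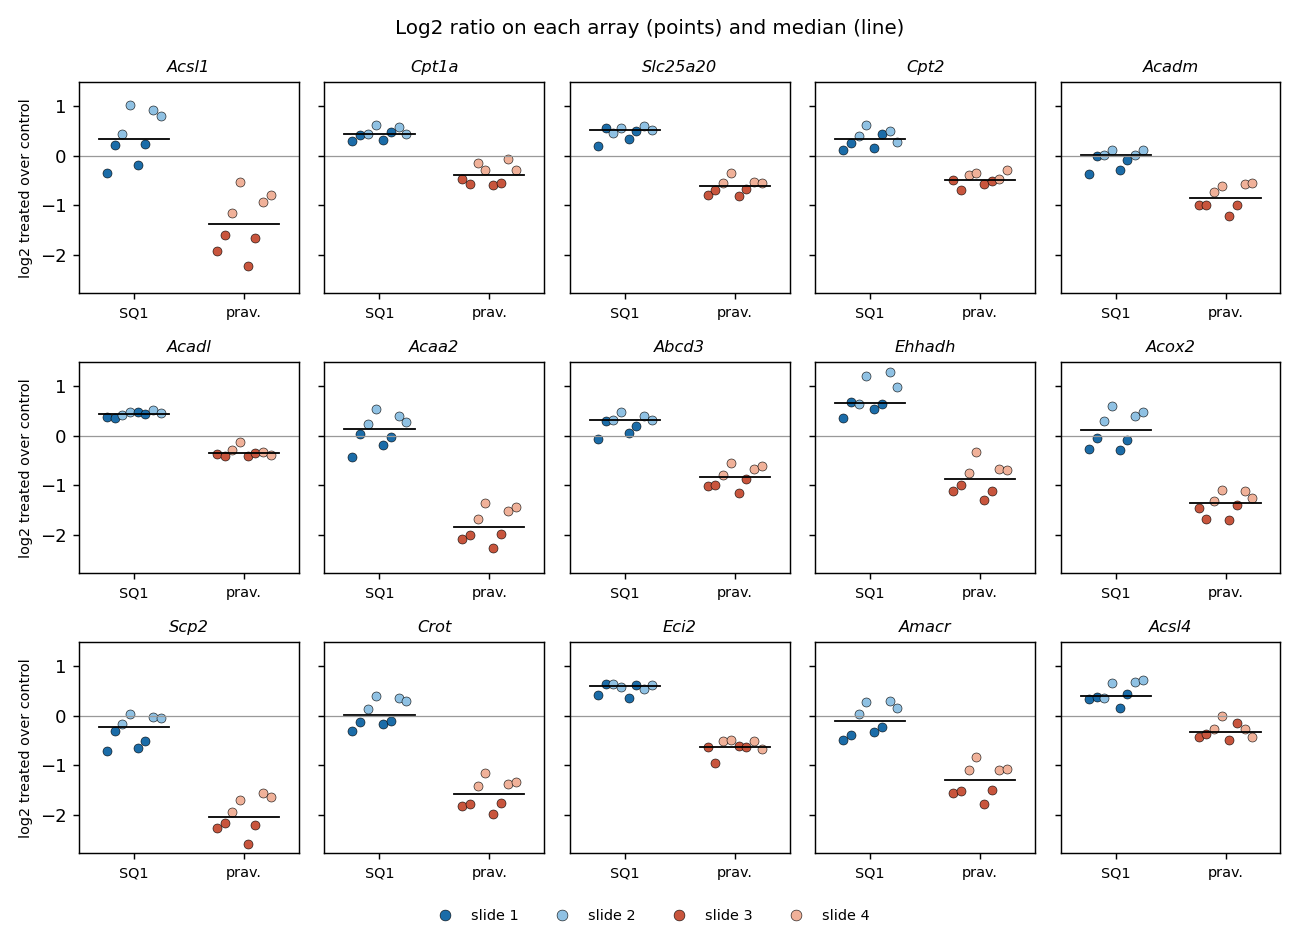
Log2 ratio of treated over control on each array for the 15 genes described singly, with the dye effect of each gene removed, coloured by slide, and the median of the 8 arrays as a line. In all 15 every SQ1 array lies above every pravastatin array, as in 30 of the 38 genes and 12.4% of all genes tested. Many of the 15 were chosen by the size of their change. Acsl1 spreads most, from -0.34 to 1.02 with SQ1 and from -2.24 to -0.53 with pravastatin.

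The deepest falls were those of Scp2 and of the matrix thiolase gene. Scp2 had pravastatin ratios of -2.59 at the lowest, -2.05 at the median and -1.57 at the highest. All 8 arrays were low, and the fit gave a 4.03-fold fall (-2.01 ± 0.11, adjusted p = 1.41e-10). Its other probe gave -2.57. Acaa2 ranged from -2.27 to -1.37 with a median of -1.84. The highest pravastatin array lay below the lowest SQ1 array (-0.42), and it was 3.48-fold lower (-1.80 ± 0.11, adjusted p = 4.48e-10).

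Crot, which turns medium-chain products of the peroxisome into carnitine esters for export, ranged from -1.98 to -1.16 with a median of -1.59. It was 3-fold lower on the fitted scale (-1.58 ± 0.09, adjusted p = 3.79e-10). Acox2, the oxidase for bile acid precursors and branched chains, ranged from -1.71 to -1.09 with a median of -1.36. All 8 were low, and it was 2.61-fold lower (-1.38 ± 0.10, adjusted p = 3.76e-09). Amacr, the racemase that prepares branched chains and bile acid precursors for oxidation, ranged from -1.79 to -0.83 with a median of -1.30. It was 2.48-fold lower (-1.31 ± 0.11, adjusted p = 1.52e-08).

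Acsl1 had the widest range among the genes that fell, from -2.24 over a median of -1.38 to -0.53. Slide 3 held the 4 lowest arrays, and the gene was 2.56-fold lower (-1.36 ± 0.18, adjusted p = 5.17e-06). Phyh fell 2.29-fold, Hadh 2.23-fold and Etfb 2.11-fold. Both other flavoprotein genes fell, Etfdh by 0.95 ± 0.07 and Etfa by 0.86 ± 0.07.

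Ehhadh, Abcd3 and Acadm fell by similar amounts. Ehhadh had pravastatin ratios of -1.29 to -0.33 with a median of -0.88, and fell 1.83-fold (-0.87 ± 0.11, adjusted p = 1.97e-06). Abcd3 ranged from -1.15 to -0.55 with a median of -0.84. All its arrays were low, at -0.84 ± 0.07 (adjusted p = 1.12e-08). Acadm ranged from -1.22 to -0.56 with a median of -0.86, at -0.83 ± 0.07 (adjusted p = 3.85e-08), so that a gene that did not pass with SQ1 was 1.78-fold lower here.

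All 3 genes of the shuttle fell. Slc25a20 ranged from -0.81 to -0.35 with a median of -0.62, at -0.62 ± 0.05 (adjusted p = 1.7e-08). Cpt2 ranged from -0.69 to -0.29 with a median of -0.48, at -0.47 ± 0.05 (adjusted p = 8.22e-07). Cpt1a ranged from -0.59 to -0.07 with a median of -0.38, at -0.37 ± 0.06 (adjusted p = 1.88e-05), a call lost with median centring (-0.223, adjusted p = 0.0893). Hadhb (-0.96 ± 0.07) and Hadha (-0.63 ± 0.06) both fell, Acadvl by 0.79 ± 0.08 and Hsd17b4 by 0.72 ± 0.07. Eci2 ranged from -0.96 to -0.49 with a median of -0.63, at -0.63 ± 0.05 (adjusted p = 4.55e-09).

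The smallest called falls were those of Acox3 and Crat. Acox3, with a ratio on 7 of the 8 pravastatin arrays, was at -0.07 ± 0.03 (adjusted p = 0.0208), and its sign turned with median centring (0.0533) and in the deposited series table (0.0266). Crat was at -0.10 ± 0.04 (adjusted p = 0.0386), lost with slide as a random block (adjusted p = 0.128) and within slide 4 (-0.00639, adjusted p = 0.916). Leaving out any of 5 pravastatin arrays (replicates 1, 2, 4, 5 and 6) ended the call of Crat, with adjusted p between 0.0553 and 0.121, and leaving out replicate 6 or 7 ended that of Acox3 (adjusted p = 0.0592 and 0.0538).

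The difference between the drugs was tested itself, at doses that differ. Of the 38 genes, 36 were higher with SQ1 than with pravastatin and 0 were lower (0 also at an unadjusted p of 0.05), against 29.2% higher and 23.8% lower of all genes tested. The median difference was 0.86, against 0.01 over all genes. For 30 of the 38, all 8 SQ1 ratios lay above all 8 pravastatin ratios, as was the case for 12.4% of all genes. The difference was called higher for 16 of 17 mitochondrial and 14 of 14 peroxisomal genes, with medians of 0.89 and 0.84. The ratios of the 2 drugs did not overlap for 15 of these mitochondrial and 11 of these peroxisomal genes.

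Acaa2 differed most, by 1.90 ± 0.15 (3.74-fold, adjusted p = 5.1e-08), followed by Acsl1 at 1.75 ± 0.26 (adjusted p = 2.99e-05) and Scp2 at 1.71 ± 0.16 (adjusted p = 1.75e-07). Ehhadh, at 1.67 ± 0.15 (adjusted p = 1.89e-07), combined a rise with SQ1 and a fall with pravastatin. Crot differed by 1.64 ± 0.13 and Acox2 by 1.52 ± 0.14, and neither passed with SQ1 alone. Acads was at 0.07 ± 0.06 (95% interval -0.05 to 0.20, adjusted p = 0.315). Acsl3 was at 0.31 ± 0.17 (95% interval -0.06 to 0.68, adjusted p = 0.15), and passed with replicate number as a block (adjusted p = 0.0016) and without pravastatin replicate 4 (0.436, adjusted p = 0.0156). The call of Abcd2, at 0.19 ± 0.08 (adjusted p = 0.0486), was lost with median centring (adjusted p = 0.126) and with no filter on dim probes (adjusted p = 0.0604). It was also lost without any of SQ1 replicates 1, 2, 4, 5, 7 and 8 or pravastatin replicates 1, 2, 3, 5 and 6 (adjusted p between 0.0543 and 0.1).

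**Figure D3:**
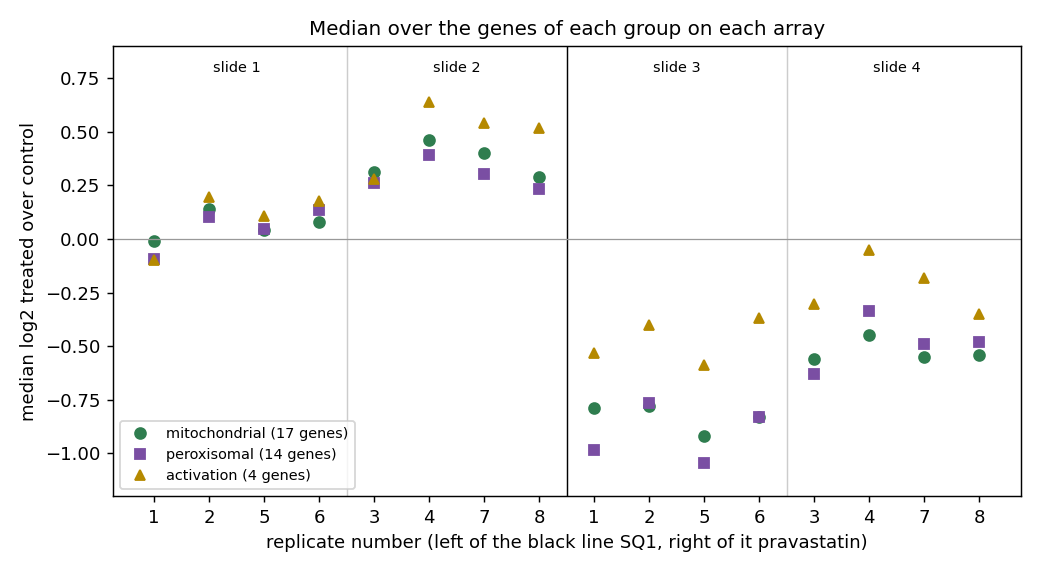
Median log2 ratio of treated over control on each array over the 17 mitochondrial, 14 peroxisomal and 4 activating genes, by replicate number and slide. The mitochondrial medians lie between -0.01 and 0.14 on slide 1, 0.29 and 0.46 on slide 2, -0.92 and -0.78 on slide 3, and -0.56 and -0.45 on slide 4.

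The slides of each drug were compared next. With SQ1, 20 of 38 were called lower on slide 1 than on slide 2 and 0 higher, against 12.1% of all genes in either direction, with medians of 0.06 and 0.37. With pravastatin, 29 were called lower on slide 3 than on slide 4 and 0 higher, against 21.7% of all genes, with medians of -0.81 and -0.49. Slide 3 was scanned on a day of its own and the other 3 slides on another, so that for pravastatin slide and scan day cannot be told apart, while all SQ1 arrays share a scan day. Within slide 1, SQ1 raised 14 and lowered 9 of the 38, against 15.3% higher and 19.4% lower of all genes. Within slide 2 it raised 28 and lowered 0, against 14% and 12.9%. Between slides 1 and 2, Acox2 went from -0.17 to 0.44 (adjusted p = 0.00142), Crot from -0.18 to 0.29 (adjusted p = 0.00195), and Amacr from -0.36 to 0.18 (adjusted p = 0.00185). Each of these was called in opposite directions on the slides, as was Echs1 (-0.17 and 0.21, adjusted p = 0.00731). Eci2 (0.51 and 0.60), Acadl (0.41 and 0.47) and Slc25a20 (0.40 and 0.53) rose on both slides, and their differences between the slides did not pass (adjusted p = 0.533, 0.527 and 0.267).

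The difference between the drugs was also computed within sets of same-numbered arrays. It had a median over the 38 genes of 0.93 within replicates 1, 2, 5 and 6 (slides 1 and 3) and of 0.85 within replicates 3, 4, 7 and 8 (slides 2 and 4). Between these sets, 0 of the 38 differences were called by limma, 2 had an unadjusted p below 0.05, and 0% of all genes were called. For Acaa2 the sets gave 1.94 and 1.87, for Ehhadh 1.69 and 1.65, and for Scp2 1.76 and 1.67. Markers of hepatocytes moved with the slides too, with medians of -0.37 and 0.02 on slides 1 and 2 and of -1.51 and -1.28 on slides 3 and 4. Their part in the results was not tested.

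**Figure D4:**
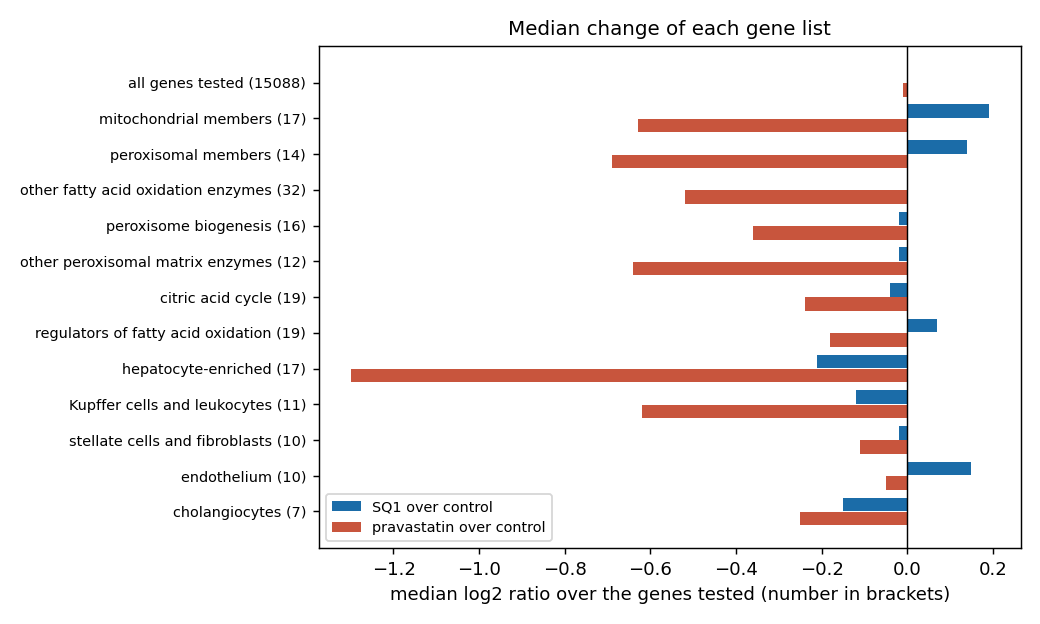
Median log2 ratio of treated over control over the genes tested in each list, with their number in brackets, for SQ1 and pravastatin. The longest bar is that of hepatocyte-enriched genes with pravastatin (-1.30), against -0.63 for the mitochondrial and -0.69 for the peroxisomal genes.

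Other lists were counted in the same fit, and their counts are to be read against the shares of all genes given above, 15.7% higher and 16.5% lower with SQ1 and 30.8% higher and 35.7% lower with pravastatin. Of 32 further enzymes of fatty acid oxidation, 28 fell and 1 rose with pravastatin (median -0.52), and 7 rose and 2 fell with SQ1 (median 0.00). Slc27a2, the very long-chain acyl-CoA synthetase of the peroxisome, fell most with pravastatin (-3.13 ± 0.20, adjusted p = 8.52e-10), and Cpt1c, the neuronal relative of Cpt1a, was the riser (0.21 ± 0.04). With SQ1 the largest rise was that of Acacb (1.095 ± 0.07, adjusted p = 7.07e-09), whose product, malonyl-CoA, inhibits Cpt1a, and the larger of the called falls that of Nudt19, a CoA hydrolase (-0.13 ± 0.04). Cpt1b, Eci3, Aldh3a2, Slc22a5 and Ech1, named after their values were seen, rose with SQ1 by 0.474, 0.457, 0.455, 0.449 and 0.446.

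Of 16 peroxisome biogenesis genes, 15 fell with pravastatin (median -0.36), led by Pex11g (-1.06 ± 0.04, adjusted p = 3.93e-12), and with SQ1 2 rose (Pex16 the most, 0.19 ± 0.07) and 2 fell (Pex2 the most, -0.21 ± 0.05), no more than the shares of all genes. Of 12 peroxisomal enzymes outside fatty acid oxidation, 8 fell and 2 rose with pravastatin (median -0.64), with urate oxidase (Uox, -2.47 ± 0.16) and the peroxiredoxin gene Prdx5 (0.27 ± 0.05) at the ends. With SQ1, 3 rose and 3 fell, from Ddo (-0.60 ± 0.15) to Idh1 (0.33 ± 0.04). Of 19 citric acid cycle genes, 17 fell and 1 rose with pravastatin (median -0.24), from Suclg2 (-0.95 ± 0.08) to Idh3a (0.29 ± 0.03). SQ1 raised 2, with Idh3a again the highest (0.20 ± 0.03), and lowered 2, with Pcx the lowest (-0.24 ± 0.04), again no more than those shares.

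Of 19 regulators of the pathway, 10 fell and 5 rose with pravastatin (median -0.18), and 5 rose and 3 fell with SQ1 (median 0.07). The 5 that rose with pravastatin and the 3 that fell with SQ1 are near the shares of all genes. Creb3l3, a liver transcription factor that acts with PPARalpha, fell by 1.58 ± 0.10 with pravastatin (adjusted p = 7.76e-10), and Ppard, which encodes PPARdelta, rose by 1.07 ± 0.03 (adjusted p = 1.1e-13). With SQ1, Foxo1 rose by 0.71 ± 0.07 (adjusted p = 1.21e-06) and, among the genes that passed, Pparg fell most (-0.20 ± 0.06). Ppara itself, chosen after its values were seen, was at -0.86 ± 0.22 with pravastatin (adjusted p = 0.00233) and at 0.26 ± 0.22 with SQ1 (adjusted p = 0.394).

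Markers of hepatocytes and of other cells were counted too, to be read against the same shares of all genes. Of 17 hepatocyte-enriched genes, 17 fell with pravastatin (median -1.30, from -1.70 to -1.14 on single arrays). With SQ1, 7 fell and 0 rose (0 also at an unadjusted p of 0.05; median -0.21, from -0.59 to 0.10), led by Hpd (-0.92 ± 0.15), and the other 10 did not pass. Of 11 markers of Kupffer cells and leukocytes, 8 fell with pravastatin (median -0.62), led by Vsig4 (-1.08 ± 0.08), and with SQ1 5 fell, led by Cd5l (-0.79 ± 0.07), and Cd74 rose (0.26 ± 0.06). Markers of stellate cells, endothelium and cholangiocytes had medians of -0.11, -0.05 and -0.25 with pravastatin and of -0.02, 0.15 and -0.15 with SQ1. Of 10 stellate genes, 1 rose and 1 fell with SQ1 (Lrat, 0.95 ± 0.10, and Reln, -0.11 ± 0.04), and 4 fell with pravastatin, led by Acta2 (-0.37 ± 0.08). Of 10 endothelial genes, 5 rose with SQ1, led by Lyve1 (0.47 ± 0.08), while 4 rose and 4 fell with pravastatin, from Stab2 (-0.59 ± 0.06) to Clec4g (0.27 ± 0.11). Of 7 cholangiocyte genes, 3 fell with SQ1, led by Spp1 (-0.65 ± 0.12), while 4 fell and 1 rose with pravastatin, from Sox9 (-0.55 ± 0.06) to Epcam (0.34 ± 0.06). The stellate counts with both drugs and the endothelial counts with pravastatin are near or below the shares of all genes. So are the single risers, Cd74 with SQ1 and Epcam with pravastatin. What these shifts contribute to the changes of the oxidation genes was not tested.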

How the data were processed

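Each of the 16 deposited scanner files gives, per the file headers, the median red and green intensities of each spot and of its surroundings, before any normalization by the authors. They also hold processed signal intensities and a log10 ratio of red over green, written by Agilent Feature Extraction 11.0.1.1 on a design laid out on mm9, per the file headers. A further table that the authors deposited holds a log2 value per probe, with scale and centring not stated. Its correlation with Agilent's ratio, signed as treated over control, was 0.742 to 0.999 per array, and its column medians lay between -0.0677 and 0.14.

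In limma 3.58.1 (R 4.3.3), background was corrected by normexp (offset 50), arrays were normalized by loess, and spots of a probe were averaged. The plan named the mean spot signal, and the median was used in its place. RefSeq accessions named 27228 of 39429 probes. A probe was kept if it was well above background in at least 4 treated channels of a drug or 8 control channels, with at least 7 ratios per drug, and a gene took its brightest probe. All 7 genes of the list with another probe kept their direction with it for both drugs, but sizes differed both ways. The other probe gave smaller changes for Decr1 with SQ1 (0.22 against 0.42) and Cpt1a with pravastatin (-0.21 against -0.37). It gave larger ones for Acsl1 with SQ1 (0.52 against 0.39) and Scp2 with pravastatin (-2.57 against -2.01). For Acox3 with pravastatin it gave -0.02. The fit over 16 arrays had a coefficient per drug and a dye term (13 residual degrees of freedom) and covered 15088 genes. Errors after ± are its standard errors, and array values have the dye effect of each gene removed. Calls were made at a Benjamini-Hochberg adjusted p of 0.05 over all genes, two-sided, and measure spread between arrays. The number of arrays limits the precision. The fit was tested on simulated data with independent noise on each array. The simulation held no slide or replicate effect, whereas the real arrays had correlations of 0.469 within replicate numbers and 0.27 within slides. It therefore does not test the calls against such effects.

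Same-numbered arrays of the drugs deviated together (correlations 0.221 to 0.718 in all 8 pairs). The numbers were taken to pair them only in the setting with replicate number as a block. The main fit held no replicate term, so that its difference between the drugs is unpaired. Such arrays also match in dye orientation and in slide set (slides 1 and 3, or 2 and 4). No correlation is given for arrays of different numbers, so that these values alone do not show pairing. The genes and lists were chosen with earlier results of these data known. By rule, genes described singly were the 6 largest called changes for each drug and for their difference, 7 set genes of entry into the pathway and, of other lists, the largest called rise and fall, of which 1 is not reported here. Of the listed genes, Far1, G6pc1 and Cd68 had no probe matched by accession. The comparison within sets of replicate numbers was chosen after seeing the data.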

Additional observations from a re-analysis of the deposited data

Results flagged for a closer look

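Of 76 groups of array ratios (38 genes, 2 drugs; 8 arrays each, 7 for Acox3 with pravastatin), 2 had an array that stood apart from the others, where chance alone gives about 5% of groups. Pravastatin replicate 4 gave -0.13 for Acadl, while the nearest other array was at -0.29 and the farthest at -0.40. Pravastatin replicate 2 gave -0.96 for Eci2, while the nearest other array was at -0.68 and the farthest at -0.49. Pravastatin replicate 4 also had the lowest array weight, 0.476.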

How the results depend on the processing

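The 0 genes called higher with pravastatin and the 0 called lower in the difference held under every alternative run. The count lowered by pravastatin ran from 27 (median centring) to 37 (within slide 3), and that of the difference from 31 to 37. With scan day as a random block 11 genes were called with SQ1, 10 of them higher, although all SQ1 arrays share a scan day. Within slide 2 SQ1 raised 28. The count of 2 lowered by SQ1 was 1 with the Agilent ratio, the deposited series table, no filter on dim probes, and a random block of slide or of scan day. It was 0 with median centring, within slide 2 and at an adjusted p of 0.01, 4 with slide terms and 9 within slide 1. Leaving out single arrays gave 0 to 3 for it, 16 to 20 for the genes raised by SQ1, 34 to 36 for pravastatin and 35 to 37 for the difference. With replicate number as a block the counts were 22, 36 and 37 called, and beside Acadvl, Pecr and Acsl3, given above, it changed no call. Signs turned for Echs1 (-0.171), Acox2 (-0.172) and Crot (-0.177) with SQ1 within slide 1, for Amacr within slide 2 (0.183), and for Acox3 with pravastatin under median centring (0.0533) and in the deposited series table (0.0266). The cause was not tested. Signs of values not past the threshold under either setting were not counted. Median centring moved the median of all genes by 0.069 with SQ1 and 0.0525 with pravastatin.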

Other observations

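Differences between slides were also counted over the whole array. Over all 15088 genes tested, 1833 differed between the slides of SQ1 and 3274 between those of pravastatin, while the difference between the drugs was called for 0 genes between replicates 1, 2, 5 and 6 and replicates 3, 4, 7 and 8, with 837 at an unadjusted p of 0.05 (limma).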
